A study of Mus musculus with 3 samples.

Results

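The 10 genes described here, *Aqp1*, *Aqp3*, *Aqp4*, *Aqp7*, *Aqp8*, *Slc12a2*, *Cftr*, *Kcne3*, *Kcnq1* and *Best2*, encode water channels and the machinery of intestinal chloride secretion. They were named out of the 27998 genes measured, and they were chosen partly on measured values of these libraries, because *Aqp1* was higher in *LApcL* than in *LApc* adenoma cells; that contrast is given as a description. Single cells had been profiled with droplet-based 3′ RNA sequencing from the EpCAM+ sorted epithelium of the small intestine, with 1 library of 1 mouse for each of 3 genotypes. The WT library came from a wild-type mouse on day 21 after tamoxifen, *LApc* from an Lgr5-CreERT2;Apc fl/fl mouse on day 29, and *LApcL* from a mouse that carried Lef1 fl/fl in addition to Lgr5-CreERT2 and Apc fl/fl, on day 21. All were C57BL/6 mice that were given 2 doses of 2 mg tamoxifen at 7 to 8 weeks of age. Cre acts from the *Lgr5* locus, which is active in stem cells, so that cells outside the adenoma may descend from recombined or unrecombined stem cells. There was no replicate and no test was run, and genotype cannot be told apart from mouse, library and, for *LApc*, day. The kit version is not given per library in the sources used here.

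In secreting crypt cells, chloride enters across the basolateral membrane together with sodium and potassium, potassium leaves again through basolateral channels, and chloride passes into the lumen through apical channels, with sodium and water following. Aquaporins let water cross cell membranes, and some of them also pass glycerol. Fluid secretion is best known from crypts, and absorption from the villus.

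The promoters of *Aqp1*, *Aqp8* and *Cftr* are shown because these are the members whose levels in adenoma cells differed by the largest factors, from the other mutant or from the crypt, among those with a promoter in the table used and a mean level of 10 counts per 1000000 UMIs (CPM) or more in that comparison. They are given 5′ to 3′ on the strand of the gene as in RefSeq on GRCm38.p6, from 250 bases before the start site to 50 from it, with GC boxes (GGGCGG on either strand) in capitals. The *Aqp1* promoter lies at chr6:55336049-55336348, the *Aqp8* promoter at chr7:123462044-123462343 and the *Cftr* promoter at chr6:18170437-18170736, all on the plus strand.
Aqp1: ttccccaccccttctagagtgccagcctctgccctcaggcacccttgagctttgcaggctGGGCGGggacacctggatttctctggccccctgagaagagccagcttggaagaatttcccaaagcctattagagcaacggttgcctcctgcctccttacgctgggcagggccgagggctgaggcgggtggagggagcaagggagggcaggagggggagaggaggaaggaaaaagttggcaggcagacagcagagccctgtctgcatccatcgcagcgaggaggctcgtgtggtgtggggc
Aqp8: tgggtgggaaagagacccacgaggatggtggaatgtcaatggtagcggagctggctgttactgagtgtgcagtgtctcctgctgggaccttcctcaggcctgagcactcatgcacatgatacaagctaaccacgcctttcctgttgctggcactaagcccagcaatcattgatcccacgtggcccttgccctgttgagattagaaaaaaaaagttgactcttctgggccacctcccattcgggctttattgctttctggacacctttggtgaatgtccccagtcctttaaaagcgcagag
Cftr: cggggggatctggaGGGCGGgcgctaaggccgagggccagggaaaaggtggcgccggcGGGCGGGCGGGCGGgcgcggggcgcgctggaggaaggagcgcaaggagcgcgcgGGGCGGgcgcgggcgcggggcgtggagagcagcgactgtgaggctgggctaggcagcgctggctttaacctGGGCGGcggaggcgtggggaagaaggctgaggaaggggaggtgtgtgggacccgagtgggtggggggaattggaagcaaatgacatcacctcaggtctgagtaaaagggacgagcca
The *Cftr* promoter held 6 GC boxes, some of which overlap each other, the *Aqp1* promoter held 1 and the *Aqp8* promoter held 0. GC boxes were found in 35.7% of 32851 mouse promoters of this length. In all, 8 promoters of 6 members (*Aqp1*, *Aqp3*, *Aqp7*, *Aqp8*, *Cftr* and *Kcne3*) were searched. The core of the Tcf/Lef motif, CTTTGA on either strand, was found in 0 of these 8 and in 16.0% of all promoters, which says only that these letters are not in these windows. TATAAA was found in 1 of the 8, that of *Aqp3*, and in 13.6% of all promoters.

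All members are protein coding in the GENCODE M21 annotation of GRCm38 (mm10). *Aqp1* (55336432 to 55348555) and *Cftr* (18170687 to 18322768) lie on the plus strand of chromosome 6, and *Aqp8* (123462291 to 123468004), *Kcne3* (100176502 to 100184869) and *Kcnq1* (143106362 to 143427042) on the plus strand of chromosome 7. *Aqp3* (41092722 to 41098183) and *Aqp7* (41033074 to 41048139) lie close together on the minus strand of chromosome 4. *Slc12a2* (57878678 to 57946821, plus strand) and *Aqp4* (15389496 to 15410982, minus strand) lie on chromosome 18, and *Best2* (85007202 to 85014531, minus strand) on chromosome 8. *Kcnq1* overlaps the antisense transcript *Kcnq1ot1*, which had 3700 unique molecular identifiers (UMIs, 1 for each captured RNA molecule) in the kept cells, where *Kcnq1* had 14633. Whether the counting used strand is not given in the sources used here, so reads of these transcripts may be mixed. Antisense partners of *Kcne3* and *Cftr* had 142 and 4 UMIs.

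Filtering kept 10160 WT, 9617 *LApc* and 14403 *LApcL* cells with median UMI counts of 9728, 6148 and 10152, and a pair of libraries shared 214 to 318 cell barcodes. The cells with Wnt and transit-amplifying (TA) markers were divided into adenoma cells, from subclusters to which WT gave under 10% at equal library weights, and crypt cells. Crypt cells numbered 2991 (WT), 2113 (*LApc*) and 1249 (*LApcL*), adenoma cells 3, 1259 and 9203, and enterocyte-like cells 2828, 3565 and 1720. The 14 Wnt/TA markers summed to 5747 to 6831 CPM in crypt and adenoma cells and to 962 to 1561 CPM in enterocyte-like cells, where the 14 enterocyte markers had 38310 to 59974 CPM against 1118 to 4141 CPM in the other classes. *Epcam* was at 1459 CPM or more in each. *Lef1*, targeted in *LApcL*, was at 21.7 CPM (216 UMIs) in *LApc* and 3.62 CPM (399 UMIs) in *LApcL* adenoma cells, and *Apc*, targeted in both, at 49.1 and 37.6 CPM. These 3′ tags may lie outside the deleted parts and so do not check the deletions.

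Levels below are CPM of the UMIs summed over the cells of a class in a library, with exact 95% intervals in parentheses; these hold the counting error alone and leave out how mice vary. Levels are compared within a gene and not between genes. A gene was counted as past 2-fold between a pair of groups where its level differed by that factor or more and the mean of both levels was 10 CPM or more. *Best2*, which encodes a bestrophin anion channel, had 3 UMIs in all kept cells and is not described further.

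**Figure D1:**
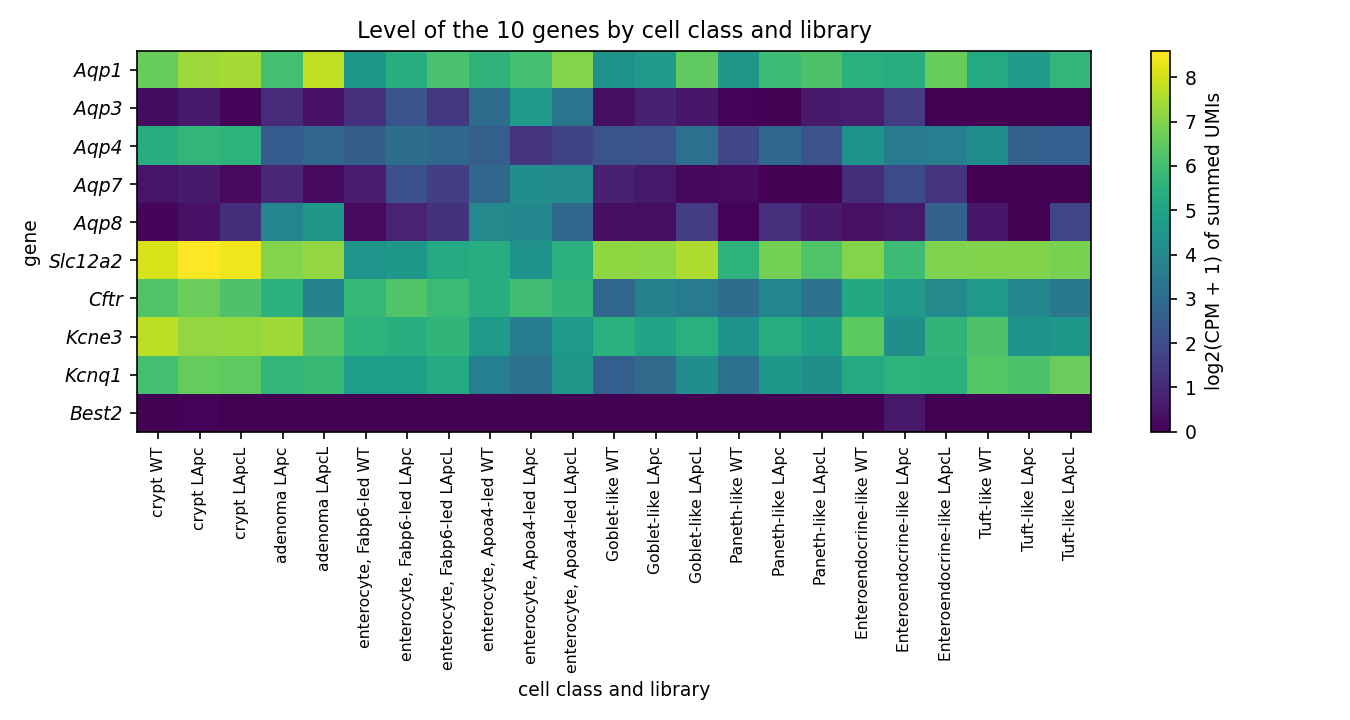
Level of the 10 genes (rows) as log2(CPM + 1) of summed UMIs (colour) in 8 cell classes of each library (columns), without the 3 WT adenoma cells. *Slc12a2* reaches its highest values in the crypt columns and *Aqp1* in the *LApcL* adenoma column (217 CPM), and *Aqp3* and *Aqp7* are highest in the *Apoa4*-led enterocyte columns.

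*Slc12a2* encodes NKCC1, the basolateral cotransporter that brings sodium, potassium and chloride into the cell. It was highest in crypt cells, at 269 CPM (264 to 275) in WT, 386 CPM (377 to 396) in *LApc* and 343 CPM (332 to 353) in *LApcL*. Enterocyte-like cells were the lowest class in each library, at 27.8, 21.6 and 39.8 CPM. Goblet-like cells came next to the crypt, at 142, 141 and 186 CPM, with intervals that overlapped the following class in WT and *LApc*. Crypt subcluster 4, the one with the most *Lgr5* UMIs, had 594, 734 and 553 CPM, and subcluster 1, with the fewest, had 130.0, 180.2 and 166 CPM. In all 3 libraries the 4 crypt subclusters had the same order by *Slc12a2* as by the stem cell gene *Lgr5* summed over libraries. When each cell had been thinned to 3000 UMIs, 48.6%, 60.0% and 58.6% of crypt cells had a *Slc12a2* UMI (77.4%, 77.4% and 82.9% unthinned), against 6.15%, 5.35% and 10.4% of enterocyte-like cells.

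*Kcnq1* encodes a basolateral potassium channel and *Kcne3* the subunit that keeps it open. *Kcnq1* stood at 64.9 CPM (62.2 to 67.7) in WT, 94.3 CPM (89.5 to 99.3) in *LApc* and 86.6 CPM (81.4 to 92.1) in *LApcL* crypt cells. *Kcne3* stood at 211 CPM (206 to 216), 146 CPM (140.0 to 152) and 149.6 CPM (143 to 157). WT was thus the lowest library for the channel and the highest for its subunit. In the *Lgr5*-rich crypt subcluster 4 the same order was seen, with *Kcnq1* at 88.1, 139 and 110.5 CPM and *Kcne3* at 307, 188 and 189.6 CPM. *Kcnq1* was also high in tuft-like cells, at 80.3, 70.1 and 98.7 CPM, above the crypt in WT and with intervals that overlapped the crypt in both mutants. *Kcne3* stood at 73.0 CPM in WT tuft-like cells and at 23.0 CPM or less in those of the mutants. In enterocyte-like cells *Kcnq1* stood at 21.5, 18.8 and 30.9 CPM and *Kcne3* at 38.4, 27.7 and 38.0 CPM, below the crypt in each library.

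*Cftr* encodes the apical chloride channel that is opened by cyclic AMP signalling. Crypt cells had 75.5 CPM (72.6 to 78.5) in WT, 98.1 CPM (93.2 to 103) in *LApc* and 72.1 CPM (67.4 to 77.1) in *LApcL*. Enterocyte-like cells were second in each library, at 47.6, 69.9 and 53.1 CPM, and goblet-like cells had 6.50, 12.4 and 10.9 CPM. The channel thus remained detectable in differentiated absorptive cells. After thinning, 12.4%, 17.0% and 13.8% of enterocyte-like cells had a *Cftr* UMI, beside 19.2%, 25.0% and 17.0% of crypt cells and 1.63%, 3.28% and 2.16% of goblet-like cells.

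Of the aquaporins, *Aqp4* and *Aqp1* were found in crypt cells. *Aqp4*, a water channel of the basolateral membrane, stood at 40.3 CPM (38.2 to 42.5) in WT, 50.2 CPM (46.7 to 53.9) in *LApc* and 46.0 CPM (42.3 to 50.1) in *LApcL* crypt cells, and at 4.89, 4.97 and 4.63 CPM in enterocyte-like cells. *Aqp1*, a water channel that is widespread in endothelium and secretory epithelia, stood at 96.5 CPM (93.3 to 99.9), 162 CPM (155 to 168) and 171 CPM (163 to 178) in crypt cells. Both mutants lay above WT. *Aqp8*, a water channel that was nearly undetected in crypt cells, had 3, 5 and 14 UMIs there (0.0883, 0.326 and 1.17 CPM).

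**Figure D2:**
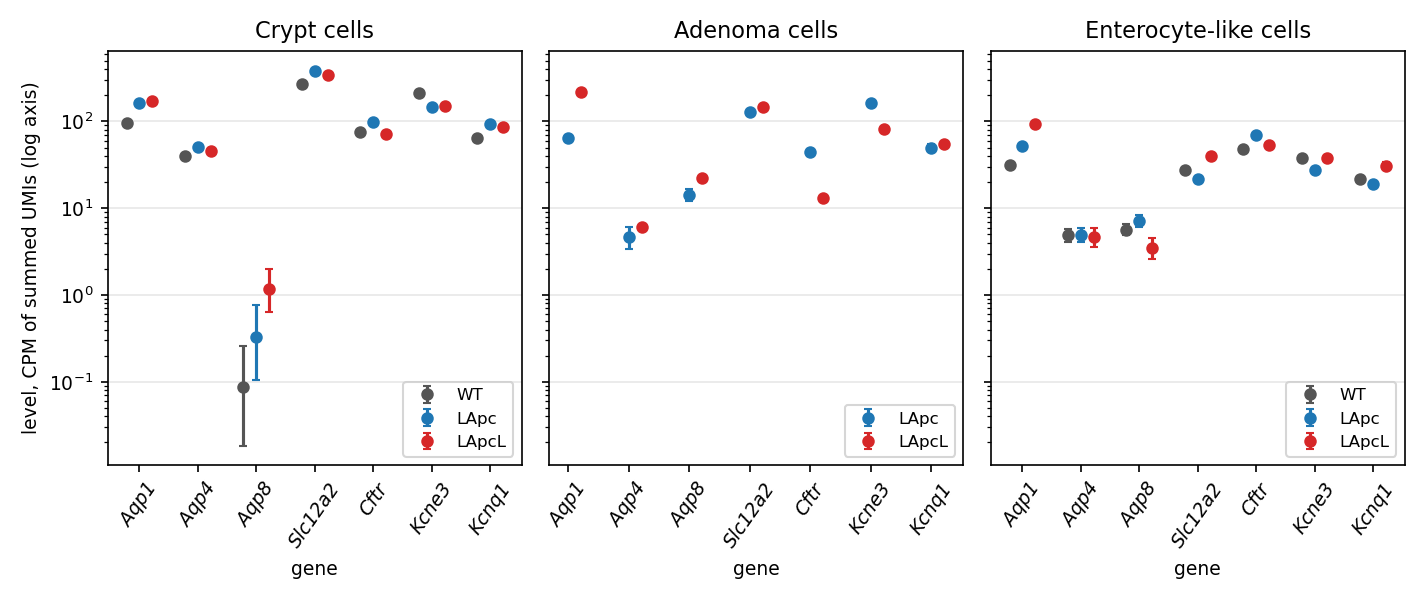
Level (CPM of summed UMIs, log axis) of 7 genes in crypt, adenoma (mutants alone) and enterocyte-like cells of each library, with 95% counting intervals as bars. *Aqp4* lies at 40.3 CPM or more in crypt cells and at 6.00 CPM or less in the other panels, and *Aqp8* lies at 1.17 CPM or less in crypt cells and at 14.3 and 22.5 CPM in adenoma cells.

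Between genotypes, all 6 members at the level filter lay within 2-fold in crypt cells, as did nearly all genes. In *LApc* against WT 0 of 6 were past 2-fold, beside 0.837% of all genes higher and 0.727% lower. In *LApcL* against WT 0 of 6 were past it, beside 0.878% and 1.2%, and in *LApcL* against *LApc* 0 of 6, beside 0.536% and 0.755%. *Aqp1* had the largest log2 ratios to WT, 0.74 in *LApc* and 0.82 in *LApcL*, in comparisons that share the WT library. *Slc12a2* (0.52 and 0.35), *Kcnq1* (0.54 and 0.42) and *Aqp4* (0.32 and 0.19) lay above WT and *Kcne3* (-0.53 and -0.49) below it in both mutants. In crypt subcluster 4 alone, the *LApcL* ratio to WT was below 0 for *Slc12a2* (-0.10, -0.19 to -0.02), and for *Aqp4* its interval was -0.44 to 0.09 around -0.18, so these directions did not hold in the *Lgr5*-rich cells. *Cftr* was higher in *LApc* than in WT (0.38, 0.28 to 0.47), and for *LApcL* the interval spanned 0 (-0.07, -0.18 to 0.05) and the ratio turned to 0.04 with totals free of ribosomal protein and mitochondrial genes. With those totals the share of higher among all genes past 2-fold moved from 53.5% to 65.1% in *LApc* against WT, from 42.3% to 54.6% in *LApcL* against WT, where the median of all genes moved from -0.07 to 0.04, and from 41.5% to 53.1% between the mutants. Between *LApcL* and *LApc* crypt cells the interval of *Aqp1* spanned 0 (0.08, -0.01 to 0.16), and in subcluster 4 alone the ratio was -0.21.

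Within the *LApc* library, adenoma cells had less of most of the machinery than crypt cells. *Slc12a2* was at 129 CPM in adenoma and 386 CPM in crypt cells (log2 ratio -1.59, -1.67 to -1.50). *Cftr* was at 44.2 and 98.1 CPM (-1.15). *Aqp4* was at 4.62 and 50.2 CPM (-3.44, -3.91 to -3.01). So the cotransporter, the apical channel and the crypt aquaporin were all past 2-fold lower. *Aqp1* was also past 2-fold lower, at 64.7 and 162 CPM (-1.32, -1.45 to -1.19), and the ratio was -2.57 with the finer clustering, where *LApc* adenoma cells had 27.8 CPM. In the finer clustering a cluster of 203 *LApc* and 1897 *LApcL* cells, with *S100g* and *Sox17* among its leading genes, stayed unnamed. The reason was that 3 endothelial markers were raised in it and Wnt/TA markers were raised too. This cluster was thus outside the adenoma class, which there held 1057 *LApc* and 7363 *LApcL* cells. The part of endothelial RNA in its *Aqp1* level was not tested. Of 6 members at the filter 4 were past 2-fold lower and 0 higher, beside 5.0% and 12.9% of all genes. *Kcnq1* had a ratio of -0.92. *Kcne3* was at 164 and 146 CPM, a ratio of 0.17 that turned to -0.11 under TMM scaling, which moved the median of all genes from 0.18 to -0.10 and put *Kcnq1* past 2-fold (-1.20). Of all genes past 2-fold, 72.0% were higher, and 53.2% under TMM scaling.

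Within the *LApcL* library, *Slc12a2* was at 148 CPM in adenoma and 343 CPM in crypt cells (-1.21, -1.26 to -1.16). *Cftr* was at 13.3 and 72.1 CPM (-2.44, -2.56 to -2.32). *Aqp4* was at 6.00 and 46.0 CPM (-2.94, -3.10 to -2.77). These 3 of 7 members were past 2-fold lower, as in *LApc*, beside 3.63% of all genes, and 1 member, *Aqp8*, was past 2-fold higher, beside 6.14%. *Slc12a2* was not lower than in the crypt in each adenoma subcluster, as given below. In the 5413 adenoma and 1060 crypt cells with no UMI of a red cell or endothelial marker *Slc12a2* was no longer past 2-fold (-0.96). *Kcne3* was lower here, at 81.6 and 149.6 CPM (-0.87, and -1.04 under TMM scaling, where the median of all genes moved from 0.18 to 0.01 and the share of higher among all genes past 2-fold from 62.8% to 50.1%). *Aqp1* was at 217 CPM in adenoma and 171 CPM in crypt cells (0.35, 0.28 to 0.41). This direction turned with the finer clustering (-0.08, -0.15 to -0.01), which left the unnamed cluster with *S100g* and raised endothelial markers outside the adenoma class. As a class, *LApcL* adenoma cells thus had *Aqp1* at about the level of the crypt, where *LApc* adenoma cells had less. The adenoma subclusters of each mutant, given below, lay on both sides of its crypt level.

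*Aqp8* was higher in adenoma than in crypt cells as a class in both mutants, though not in each adenoma subcluster. It had 142 UMIs (14.3 CPM, 12.0 to 16.8) in *LApc* and 2479 UMIs (22.5 CPM, 21.6 to 23.4) in *LApcL* adenoma cells, against the 5 and 14 UMIs in crypt cells. The log2 ratios were 5.45 in *LApc*, where the mean level lay below the filter, and 4.26 in *LApcL*. With the finer clustering the *LApcL* ratio was 3.27 and the mean level fell below the filter. There the unnamed cluster with *S100g* among its leading genes lay outside the adenoma class. After thinning, 2.45% and 5.02% of adenoma cells had an *Aqp8* UMI (3.97% and 11.5% unthinned), against 0.0728% and 0.206% of goblet-like cells as a background.

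The adenoma class was made up differently in the mutants: subcluster 7 held 425 of 1259 *LApc* and 469 of 9203 *LApcL* adenoma cells, and subcluster 2 held 94 and 2785. The part of this makeup in the ratios over the whole class was not tested, and ratios within subclusters are given apart. Between the mutants, 3 members were past 2-fold in adenoma cells, in the contrast on which the set was partly chosen. *Aqp1* was at 64.7 CPM (59.8 to 69.9) in *LApc*, from 645 UMIs, and from 23921 UMIs *LApcL* had 217 CPM (214 to 219.7), 3.35-fold higher (log2 1.75, 1.63 to 1.86). *Cftr* was at 44.2 CPM (40.1 to 48.5) and 13.3 CPM (12.6 to 14.0), 3.32-fold lower (log2 -1.73, -1.89 to -1.57). *Kcne3* was at 164 and 81.6 CPM (-1.01, -1.08 to -0.93). *Aqp1* and *Cftr* thus differed in opposite directions by similar factors, and *Kcne3* lay on the 2-fold line. Of 6 members at the filter 1 was past 2-fold higher and 2 lower, beside 0.736% and 6.51% of all genes, from which nothing is read because the set was chosen on this contrast. TMM scaling moved the median of all genes from -0.08 to 0.15 and the share of higher among all genes past 2-fold from 10.2% to 24.2%. It gave 1.98 for *Aqp1*, -1.50 for *Cftr* and -0.77 for *Kcne3*, no longer past 2-fold. *Aqp8* (0.66, 0.41 to 0.91) and *Slc12a2* (0.20, 0.12 to 0.28) were above 0. *Kcnq1* (0.15) turned to -0.04 in thinned cells, and the interval of *Aqp4* spanned 0 (0.38, -0.05 to 0.84).

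**Figure D3:**
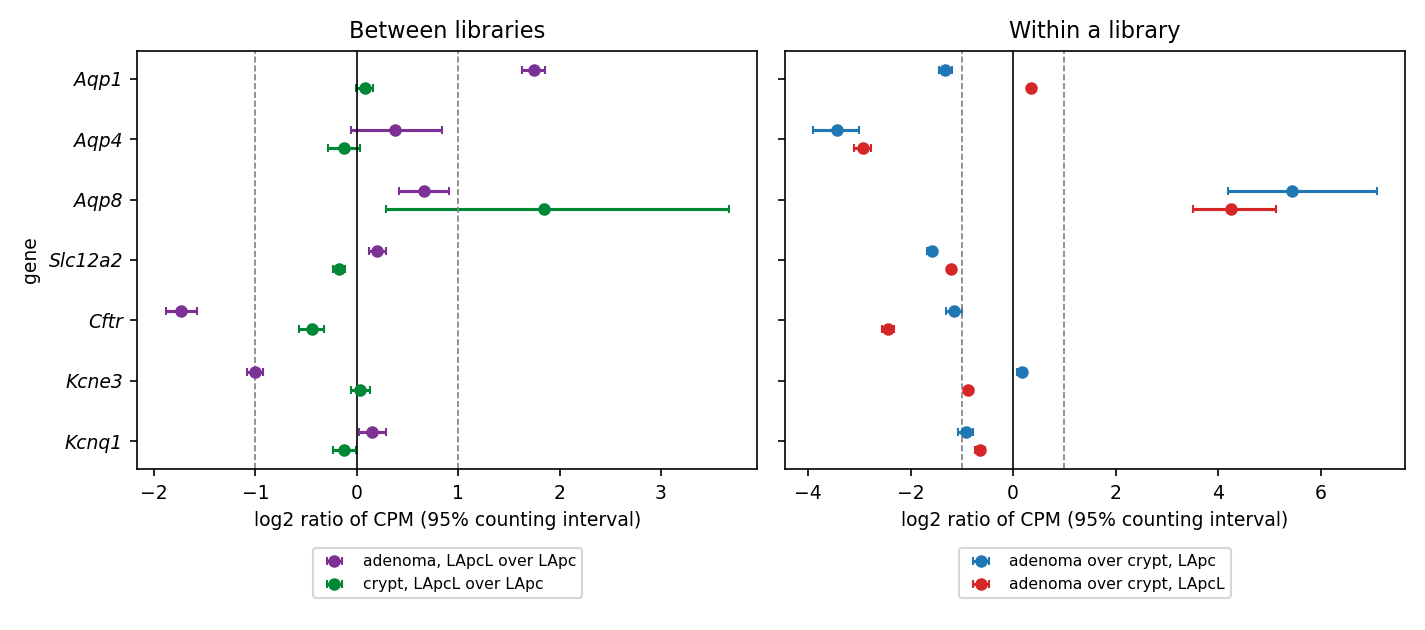
Log2 ratios of CPM (horizontal axis) with 95% counting intervals for 7 genes, between the *LApcL* and *LApc* libraries in adenoma and crypt cells (left) and between adenoma and crypt cells within each mutant library (right), with dashed lines at 2-fold. In the left panel *Aqp1* lies at 1.75 and *Cftr* at -1.73 in adenoma cells and at 0.08 and -0.44 in crypt cells.

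The share of adenoma cells with an *Aqp1* UMI is given as a description of the contrast on which the set was chosen. After thinning, 13.9% and 41.0% of *LApc* and *LApcL* adenoma cells had an *Aqp1* UMI (22.2% and 75.8% unthinned), beside 38.6% and 39.9% of crypt cells and 5.68% and 23.2% of goblet-like cells (10.1% and 38.2% unthinned). The goblet-like share, which released RNA can raise, thus differed between the libraries in the same direction. Cells with 3 or more thinned *Aqp1* UMIs made up 2.37% and 6.98% of adenoma cells, and the highest single cells had 12 and 10 UMIs. Cells with several *Aqp1* UMIs were found in both mutants. For *Cftr* the thinned shares were 11.2% and 3.83%, and for *Kcne3* 28.3% and 19.2%.

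The adenoma cells fell into 5 subclusters, numbered 0, 2, 3, 6 and 7, and *Aqp1* was higher in *LApcL* in each. Subcluster 3, with the most UMIs of *S100g*, which encodes a calcium-binding protein, had the highest *Aqp1* in both mutants, at 246 CPM in *LApc* and 419 CPM in *LApcL* (log2 0.77, 0.63 to 0.92). Subcluster 0 had 32.9 and 214 CPM (2.70, 2.42 to 3.00). Subcluster 2, with 94 *LApc* cells, had 11.1 and 98.7 CPM (3.16). The ratio was thus smallest, and under 2-fold, where the *LApc* level was highest. Subcluster 6, with the most *Lgr5* among adenoma cells, had 55.3 and 223 CPM (2.01), and subcluster 7, with the most *Wfdc18*, had 23.4 and 136 CPM (2.54). In *LApc* subcluster 3 alone lay above the crypt level of 162 CPM. In *LApcL* subclusters 2 and 7 lay below the crypt level of 171 CPM and the others above it. Immune markers summed to 419.7 CPM in the *LApc* and 22.4 CPM in the *LApcL* cells of subcluster 6, which held 486 of the 623 immune marker UMIs of *LApc* adenoma cells. The part of these in the ratios of subcluster 6 was not tested.

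*Aqp8* was also highest in subcluster 3, at 54.6 CPM (43.8 to 67.2) in *LApc* and 64.3 CPM (61.1 to 67.6) in *LApcL*, with an interval of the ratio that spanned 0 (0.24, -0.07 to 0.56). In subclusters 2 and 6 it was at 2.59 CPM or less in both mutants, beside 0.326 and 1.17 CPM in crypt cells of *LApc* and *LApcL*. In subcluster 2 the *LApc* cells had 0 UMIs and the *LApcL* cells 1.27 CPM. *Cftr* was past 2-fold lower in *LApcL* in subclusters 0 (-2.28), 2 (-1.99), 3 (-2.49) and 7 (-1.50). In subcluster 6 the *Cftr* levels were 41.5 and 43.0 CPM, with an interval of the ratio that spanned 0 (0.05, -0.40 to 0.53). *Kcne3* had its ratios nearest to 0 in subclusters 6 and 7, with -0.07 in subcluster 6 and -0.11 in subcluster 7 against -1.31 in subcluster 0, -1.14 in subcluster 2 and -0.57 in subcluster 3. Subcluster 7, which made up more of *LApc*, had the highest *Kcne3*, at 197 and 182 CPM. *Slc12a2* had its highest adenoma level in the *Lgr5*-rich subcluster 6, at 274 and 399 CPM, beside 386 and 343 CPM in crypt cells. The *LApcL* cells of this subcluster thus lay above their crypt level. *Aqp4* was also highest there, at 13.0 and 23.2 CPM, beside 50.2 and 46.0 CPM in crypt cells.

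**Figure D4:**
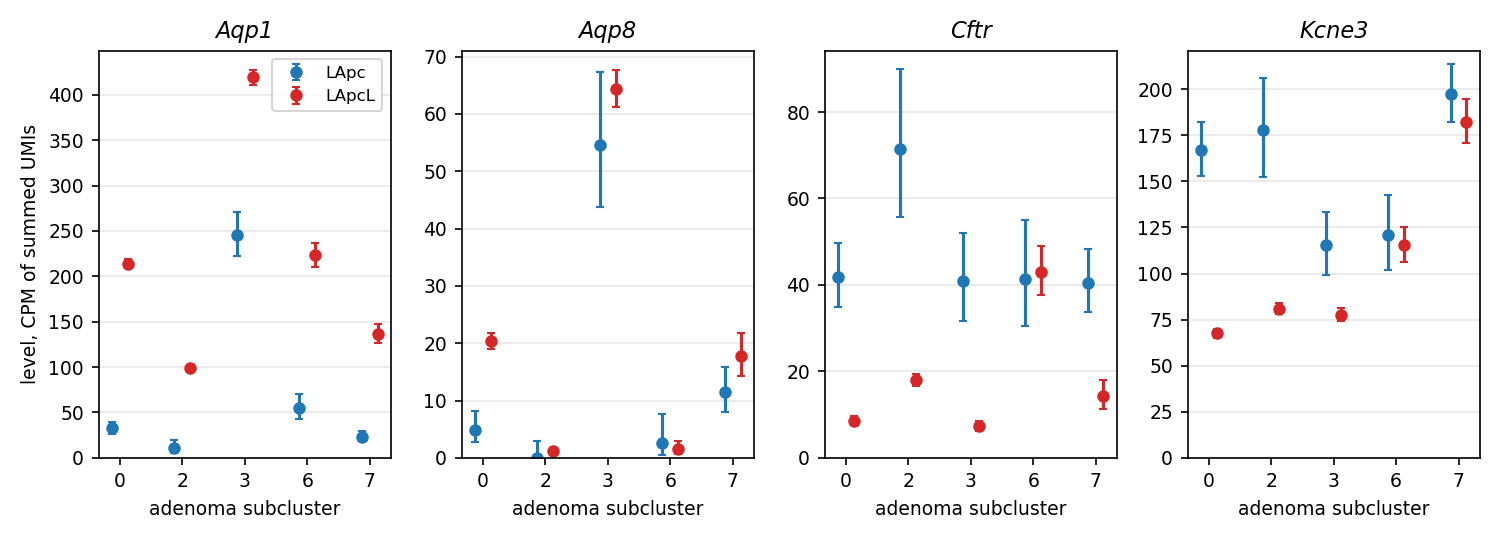
Level (CPM of summed UMIs, with 95% counting intervals) of *Aqp1*, *Aqp8*, *Cftr* and *Kcne3* in the 5 adenoma subclusters of *LApc* and *LApcL*. *Aqp1* of *LApcL* lies above *LApc* in each subcluster, *Aqp1* and *Aqp8* are highest in subcluster 3 in both, and *Cftr* lies at 41.5 and 43.0 CPM in subcluster 6.

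*Aqp1* is also a gene of endothelium and red cells, so their markers were measured beside it. The 7 endothelial markers summed to 49.6 CPM in *LApc* and 49.3 CPM in *LApcL* adenoma cells, led by *Cdh5* and *Egfl7*, respectively, and to 7.51 to 13.8 CPM in crypt cells of the 3 libraries; *Kdr* was at 0 in *LApc* adenoma cells. The 5 red cell markers summed to 1.40 CPM in *LApc* and 29.4 CPM in *LApcL* adenoma cells, with 1880 of 3244 UMIs in 1 cell. In adenoma cells with no red cell marker UMI the *Aqp1* ratio of *LApcL* to *LApc* was 1.76. In those with no UMI of either list, 5413 of 9203 *LApcL* and 901 of 1259 *LApc* cells, it was 1.54. The part of these cell types in the ratio was not tested. The 7 immune markers summed to 62.5 and 2.19 CPM, and the 5 smooth muscle, pericyte and glia markers to 34.3 and 3.82 CPM. The 6 stromal markers summed to 4.52 and 0.708 CPM, with *Col1a1*, *Col3a1* and *Lum* at 0, and the 3 adipocyte markers, with *Adipoq* and *Plin1* at 0, had 1 and 4 UMIs. The part of the immune and smooth muscle signal in the ratios of the members was not tested.

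In differentiated cells too, *Aqp1* was higher in *LApcL* than in WT. Enterocyte-like cells had 31.9 CPM (29.9 to 34.0) in WT, 51.7 CPM (48.7 to 54.8) in *LApc* and 92.9 CPM (88.0 to 97.9) in *LApcL*. Goblet-like cells had 20.4, 25.4 and 88.8 CPM and Paneth-like cells 22.7, 58.7 and 72.7 CPM. Enteroendocrine-like cells had 43.1, 39.5 and 96.3 CPM and tuft-like cells 37.4, 25.0 and 49.7 CPM. For tuft-like cells the intervals of WT (29.9 to 46.1) and *LApcL* (39.4 to 61.8) overlapped. In WT the crypt came first and enteroendocrine-like, tuft-like and enterocyte-like cells followed with overlapping neighbours; in *LApcL* the order was adenoma, crypt, then enteroendocrine-like, enterocyte-like, goblet-like and Paneth-like cells with overlapping neighbours, then tuft-like cells. RNA released from adenoma cells can enter other droplets, and the differentiated classes of *LApcL* had 22.9% to 44.4% of the adenoma level of *Aqp1* beside 9.95% to 28.9% of that of *Sox17*, 9.71% to 20.1% of that of *S100g*, 10.0% to 41.9% of that of *Clu*, 9.01% to 65.5% of that of *Msx1*, 10.1% to 126% of that of *Wfdc18* and 15.1% to 151% of that of *Fxyd3*. These ranges overlap that of *Aqp1* for all but *S100g*, which was at 807 CPM in WT enterocyte-like cells. *Sox17* was at 32.9 CPM in *LApcL* enterocyte-like cells and had 0 UMIs in those of WT. The part of released RNA in the *Aqp1* levels was not tested.

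Of the 5 members at the filter in enterocyte-like cells, *Aqp1* alone was past 2-fold in *LApcL* against WT, at 2.91-fold (log2 1.54, 1.42 to 1.66), beside 1.41% of all genes higher and 1.5% lower. In *LApc* against WT 0 of 5 were past it, beside 1.72% and 1.23%, and in *LApcL* against *LApc* 0 of 5, beside 1.28% and 1.03%. In the *Apoa4*-led cluster alone 5 members were past 2-fold in *LApcL* against *LApc*, beside 249 genes higher and 110 lower of 6719. *Slc12a2* (1.10), *Kcne3* (1.12) and *Kcnq1* (1.39) were higher there and *Aqp3* (-1.53) and *Aqp8* (-1.26) lower. Red cell markers summed to 494 CPM in *LApcL* enterocyte-like cells, with 4566 of 7363 UMIs in 1 cell, and without the cells that had any the *Aqp1* ratio to WT was 1.55. *Slc12a2* had ratios to WT of -0.37 in *LApc* and 0.51 in *LApcL*, and *Kcnq1* of -0.19 and 0.52. The *LApc* values of both turned in the *Fabp6*-led cluster alone, to 0.12 and 0.01. *Cftr* had 0.55 and 0.16, and *Kcne3* -0.47 and, with an interval that spanned 0, -0.01, which turned to 0.10 with totals free of ribosomal protein and mitochondrial genes. Those totals moved the median of all genes from 0.01 to 0.13 in *LApcL* against WT, and the share of higher among all genes past 2-fold from 48.5% to 63.5%. Against *LApc* that share was 55.3%, or 71.0% with those totals and 39.9% under TMM scaling.

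*Aqp3* and *Aqp7* encode channels that pass glycerol as well as water, and with *Aqp8* they were highest among enterocyte-like cells in the cluster led by *Apoa4*, the gene of an apolipoprotein of fat absorption. The other cluster was led by *Fabp6*, which encodes the bile acid binding protein of the ileum. *Aqp3* stood at 7.14, 25.9 and 8.97 CPM in the *Apoa4*-led and 1.30, 3.75 and 1.64 CPM in the *Fabp6*-led cluster of WT, *LApc* and *LApcL*. *Aqp7* stood at 6.20, 17.6 and 16.8 CPM and 0.624, 3.27 and 1.99 CPM, and *Aqp8* at 15.7, 15.1 and 6.30 CPM and 0.156, 0.799 and 1.40 CPM. In the *Apoa4*-led cluster *Aqp3* and *Aqp7* were highest in *LApc* and lowest in WT, whereas *Aqp8* was lowest in *LApcL*. Within the *Apoa4*-led cluster *Aqp3* of *LApc* was higher than in WT (log2 1.86, 1.48 to 2.25), and for *LApcL* the interval spanned 0 (0.33, -0.19 to 0.84). For *Aqp7* both mutants were higher than WT (*LApc* 1.51, 1.09 to 1.94; *LApcL* 1.44, 0.99 to 1.91). *Aqp8* of *LApc* did not differ detectably from WT (-0.06, -0.39 to 0.27), and that of *LApcL* was lower (-1.32, -1.85 to -0.81). After thinning, 2.42%, 8.37% and 2.69% of *Apoa4*-led cells had an *Aqp3* UMI, against 0.116%, 0.218% and 0.309% of goblet-like cells. The median mitochondrial share of UMIs in *Apoa4*-led cells was 8.17%, 10.4% and 7.86%, and its part in these values was not tested.

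**Figure D5:**
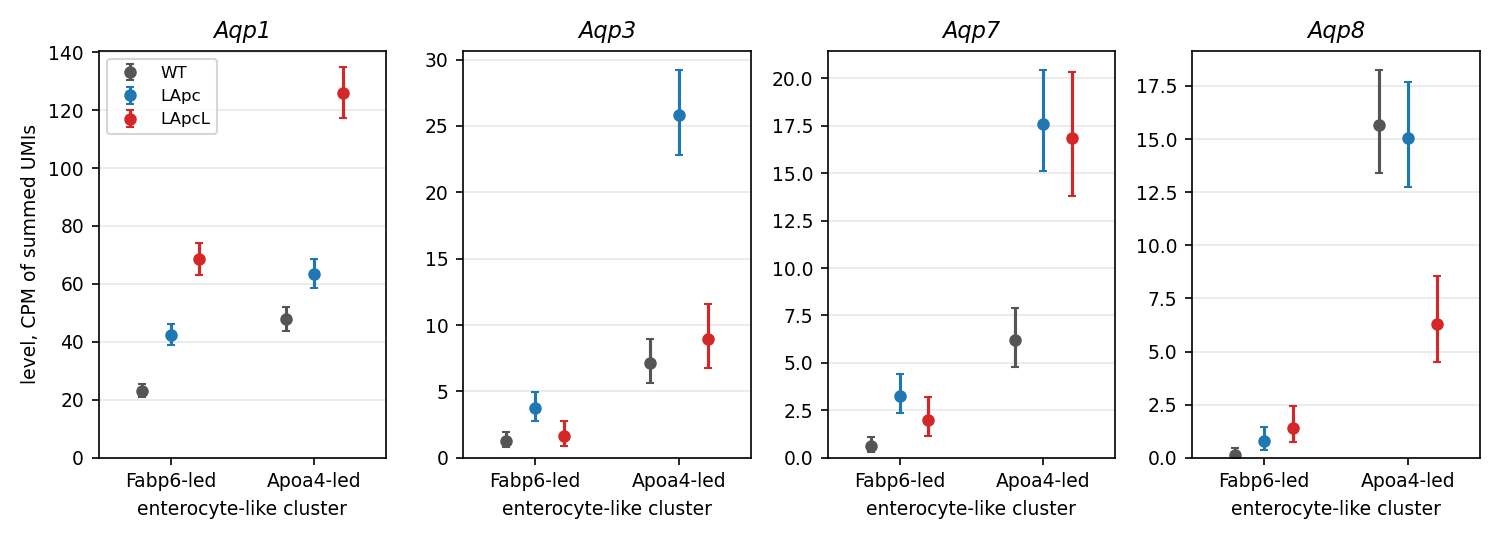
Level (CPM of summed UMIs, with 95% counting intervals) of *Aqp1*, *Aqp3*, *Aqp7* and *Aqp8* in the *Fabp6*-led and *Apoa4*-led enterocyte-like clusters of each library. *Aqp3*, *Aqp7* and *Aqp8* lie at 3.75 CPM or less in the *Fabp6*-led cluster and at up to 25.9, 17.6 and 15.7 CPM in the *Apoa4*-led cluster, and *Aqp1* of *LApcL* lies above the other libraries in both.

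The other genes of the pathway were taken from 5 lists: 7 other aquaporins, 12 chloride and bicarbonate channels and exchangers, 8 basolateral pumps, channels and cotransporters, 6 genes of sodium absorption and 18 receptors and regulators. Between *LApcL* and *LApc* adenoma cells 1, 6, 6, 1 and 10 of them passed the filter; 0 were past 2-fold higher and 3 lower, beside 0.736% and 6.51% of all genes. *Slc4a4*, a sodium bicarbonate cotransporter, was at 22.7 CPM in *LApc* and 9.31 CPM in *LApcL* (log2 -1.29). *Guca2b*, the gene of the secretion-promoting peptide uroguanylin, was at 148 and 60.5 CPM (-1.29), and *Stk39*, the gene of a kinase that activates NKCC1, at 19.4 and 5.86 CPM (-1.72). In crypt cells *Guca2a*, the gene of guanylin, was lower in both mutants, at 62.4 CPM (*LApc*; -1.20) and 46.5 CPM (*LApcL*; -1.62) against 143 CPM in WT. *Slc26a6*, an anion exchanger, was lower in *LApcL* than in WT crypt cells (-1.02), and *Guca2b* was lower in *LApcL* than in *LApc* crypt cells (-1.41).

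Against the crypt, 1, 8, 6, 2 and 10 genes of these lists passed the filter in *LApc*, of which 2 were past 2-fold higher and 4 lower, beside 12.9% and 5.0% of all genes. In *LApcL* 1, 7, 6, 0 and 10 passed it, of which 1 was past 2-fold higher and 5 lower, beside 6.14% and 3.63%. Adenoma cells of both mutants were past 2-fold lower in *Slc26a3*, a chloride and bicarbonate exchanger (*LApc* -2.70, *LApcL* -3.07), *Slc4a4* (-1.05 and -1.91), *Kcnn4*, a calcium-activated potassium channel (-1.70 and -1.55), and *Vipr1*, a receptor for vasoactive intestinal peptide (-2.55 and -1.58). *Stk39* was past 2-fold lower in *LApcL* (-2.54), and *Ptger4*, a prostaglandin receptor, was higher in *LApc* (1.05). *Fxyd3*, a regulator of the sodium pump, was higher in adenoma cells, at 1343 CPM against 85.2 CPM in the crypt of *LApc* and at 749 against 160.0 CPM in *LApcL*. In enterocyte-like cells *Fxyd3* was at 113 CPM in *LApcL*, above WT (39.2 CPM) and *LApc* (30.1 CPM), the only pathway gene past 2-fold there. The part of RNA from adenoma cells in this level was not tested. Of the sodium absorption genes, of which 0 to 2 passed the filter, 0 were past 2-fold in any of the 9 comparisons.

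The genes whose pattern was most like that of each member were ranked by Pearson's r of log2(CPM + 10) over 28 profiles of class and library, among 8531 genes, as a description, since the profiles share libraries and depth. Those of *Slc12a2* were *Rfc1* (0.87), *Slc1a5* (0.87) and *Pck2* (0.84). Those of *Kcne3* were *Lipt2* (0.92), *Ccnb2* (0.90) and *Grwd1* (0.89). For *Cftr* they were *Nomo1* (0.91), *Pdss1* (0.90) and *Nr3c1* (0.89). For *Aqp1* they were *Amica1* (0.86), *Snhg9* (0.84) and *Cdt1* (0.82), and for *Aqp4* *Clca3b* (0.91), *Nr2e3* (0.90) and *Olfm4* (0.90), the last of these a stem cell gene of the crypt. With a pseudocount of 1 in place of 10, *Olfm4* was no longer among the 3 genes nearest to *Aqp4*. For *Aqp8* they were *Apoa2* (0.87), *Sccpdh* (0.87) and *S100g* (0.83). *Aqp3* was nearest to *Gm11127* (0.97), *Cd36* (0.96) and *Apoc2* (0.96), and *Aqp7* to *Susd2* (0.97), *Slc5a12* (0.96) and *Slc47a1* (0.94).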

How the data were processed

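Raw UMI counts per gene and cell barcode were deposited by the authors, who had aligned and counted the reads to mm10 (Cell Ranger 2.1.1). Barcodes in the outer 1% tails of detected genes or with over 20% mitochondrial UMIs were removed here. So were those with the highest Scrublet scores (scanpy 1.11.5) at the expected doublet rate (9.16% to 13.9%). Cells were integrated and clustered (Seurat 5.3.0, resolution 0.2, members left out of the 955 features). Clusters were named from marker lists, by limits set after the clusters had been seen. Wnt/TA-like cells were subclustered (leidenalg 0.10.2) after mutual-nearest-neighbour correction. UMI counts were summed per class and library (11453, 13214 and 17388 barcodes; 140181087, 79696291 and 191509615 UMIs before filtering). Levels have exact Poisson intervals, ratios exact conditional binomial and shares Clopper-Pearson intervals (95%). TMM factors came from edgeR 4.0.16. Ratios were checked on simulated data. The members and lists were chosen with earlier results of these data known. All members were named, and other pathway genes where past 2-fold. The genes with a pattern most like that of *Kcnq1* are not reported here.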

Additional observations from a re-analysis of the deposited data

Results flagged for a closer look

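The results here were flagged because a ratio had opposite signs, with intervals clear of 0, in groups under the same contrast, or because a member stood above WT in cells that no comparison used. None of these differences was tested, since each group is 1 library. For adenoma over crypt cells, *Aqp1* had log2 ratios of -1.32 in *LApc* and 0.35 in *LApcL*, and *Kcne3* of 0.17 and -0.87; the 0.35 and the 0.17 change sign under the finer clustering and TMM scaling, respectively. For *LApc* over WT, *Slc12a2* had 0.52 in crypt and -0.37 in enterocyte-like cells, and *Kcnq1* 0.54 and -0.19. For *LApcL* over *LApc*, *Slc12a2* had 0.20 in adenoma, -0.17 in crypt and 0.88 in enterocyte-like cells. *Kcnq1* had 0.15, -0.12 and 0.71, and *Kcne3* -1.01 in adenoma and 0.46 in enterocyte-like cells.

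Cluster 6 had both goblet and cycling genes among its leading genes and stayed unnamed. Its *LApc* cells had *Aqp1* at 120.0 CPM (WT 51.2), *Slc12a2* at 249 CPM (WT 166), *Cftr* at 66.6 CPM (WT 46.3) and *Kcnq1* at 56.6 CPM (WT 30.9). Its *LApcL* cells had *Aqp1* at 111 CPM and *Kcnq1* at 46.1 CPM. Cluster 9, in which immune markers were raised beside those of Wnt/TA cells, also stayed unnamed. Its *LApcL* cells had *Aqp1* at 187 CPM (WT 65.4) and *Aqp8* at 32.9 CPM, where the 47 WT cells had 0 UMIs of *Aqp8*.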

How the results depend on the processing

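Each count of members past 2-fold was recomputed under the alternatives. Without the filter on low values it was 6 (3 with it) in *LApcL* against *LApc* adenoma cells, beside 2720 genes higher and 4253 lower of 18975. In crypt cells it was 3, 3 and 4 (0 with it) in *LApc* against WT, *LApcL* against WT and *LApcL* against *LApc*. Beside these, 2676, 2077 and 1488 of 16825, 16528 and 16344 genes were higher and 1679, 2096 and 2075 lower. It was 2 in each enterocyte-like comparison (0, 1 and 0 with it). There 2716, 3049 and 2284 of 16880, 16533 and 16791 genes were higher and 1667, 1683 and 2133 lower. In adenoma against crypt cells of *LApc* it was 7 (4 with it), beside 5372 genes higher and 1873 lower of 17473. In adenoma subclusters 3 and 6 alone the count was 1 each, beside 44 and 107 genes higher and 301 and 659 lower of 7821 and 7885. The *Cftr* ratio in subcluster 6 reversed to 0.051. In *LApc* against WT enterocyte-like cells the count was 1 with totals free of ribosomal and mitochondrial genes, equal cell weights, resolution 0.4 or thinning. Beside it 126 to 167 genes were higher and 90 to 98 lower, of 6655 to 7425. In *LApcL* against *LApc* the count was 1 with these settings or the 10% mitochondrial limit. The member called was lower in *LApcL* with these settings and higher with the 10% mitochondrial limit, so the calls differ in direction. Beside it 72 to 159 genes were higher and 48 to 82 lower, of 6803 to 7648. In the *Apoa4*-led cluster alone the 3 enterocyte-like counts were 3, 3 and 5. Beside them, 159, 153 and 249 of 6591, 6781 and 6719 genes were higher and 143, 114 and 110 lower. *LApcL* adenoma against crypt cells without red cell or endothelial UMIs gave 2 (4 in all cells), beside 428 genes higher and 257 lower of 7401. There *Slc12a2* was under 2-fold and *Aqp8* (log2 3.50) was below 10 CPM on average. At resolution 0.4, where the adenoma class held fewer cells, *Aqp8* (3.27) was also below 10 CPM. With a pseudocount of 1, 17 of the 27 genes most like a member stayed. The subcluster, cluster and marker-free alternatives were chosen after seeing the data. So was the limit that set the adenoma cells high in *S100g* apart. The cause of the changes in these counts was not tested.

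In *LApcL* against *LApc* adenoma cells *Aqp1* stayed past 2-fold in 9 of 9 alternatives other than the single-subcluster and marker-free ones (log2 1.44 to 2.54). *Cftr* did in 9 of 9 (-2.35 to -1.50) and *Kcne3* in 4 of 9 (-1.07 to -0.77). These alternatives include the adenoma cells high in *S100g* alone, which are subclusters 0 and 3. The counts are a description, since the set was partly chosen on this contrast and each alternative used the same libraries. In enterocyte-like cells of *LApcL* against WT *Aqp1* stayed past 2-fold in 7 of 7 (1.44 to 1.65). No paired analysis was possible because each group is 1 library, and for the same reason none could be left out. Depth limits *Aqp3*, *Aqp7* and *Best2*, which had 573, 513 and 3 UMIs in all kept cells.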
